A study of Nomascus leucogenys with 9 samples.

Results

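The genes described here make up the part of the MHC class II pathway that loads peptides and the cofactors that switch class II genes on: HLA-DMA, HLA-DMB, HLA-DOA, HLA-DOB, CTSS, IFI30, RFXAP and RFXANK. They were listed by 8 human Ensembl gene identifiers. The rule uses no measured value, although earlier results of these data were known when the list was made. The expression table used here held a row for 4 of the 8, among 15356 rows in all: CTSS (ENSG00000163131), IFI30 (ENSG00000216490), RFXAP (ENSG00000133111) and RFXANK (ENSG00000064490). The identifiers of HLA-DMA (ENSG00000204257), HLA-DMB (ENSG00000242574), HLA-DOA (ENSG00000204252) and HLA-DOB (ENSG00000241106) had no row, so both nonclassical class II heterodimers were not analysed here. Nothing can be read from this about whether the cells express them.

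MHC class II molecules carry peptides from endocytosed proteins to the surface of B cells and other antigen-presenting cells. Before loading, the groove is held by the invariant chain, which cathepsin S (CTSS) cuts down in B cells to a short remnant. HLA-DM then exchanges that remnant for antigenic peptide, and HLA-DO restrains HLA-DM. IFI30, also called GILT, is a thiol reductase that opens disulfide bonds of antigens in the same compartments. RFXAP and RFXANK are subunits, with RFX5, of the complex that binds the X box of class II promoters, and inherited loss of any of these subunits in humans causes a deficiency of class II molecules.

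RNA-seq had been performed on EBV-transformed lymphocyte lines, that is B lymphoblastoid cultures carrying Epstein-Barr virus, from 9 northern white-cheeked gibbons (Nomascus leucogenys). Asia is called line 1 here, Bobby line 2, China line 3, Khao line 4, Melouprey line 5, Nancy line 6, Phyllis line 7, Ricky line 8 and Vok line 9. All shared the same cell type and no treatment was labelled, so there was 1 group, with 1 library per animal and no repeat of any line. The spread given below therefore mixes animal, transformed culture and library, which cannot be told apart.

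Values were normalised expression levels on a logarithmic scale whose base is not stated, so every fold and linear value here takes it as 2. Their depth is not known, and no source used here says that they were divided by gene length. The levels of the 4 genes are therefore not ranked against each other, and a log2 level is set against the same gene in other lines. Levels are also given in parts per 1000000 (ppm) of the summed linear values of a line, and the 12590 rows that averaged 1 ppm or more formed the background. CTSS, RFXAP and RFXANK passed this filter and IFI30 did not. Line 1 had the largest SD around the row medians, 0.53 log2 units against 0.22 to 0.42 in the other lines. Results that rest on line 1 are therefore also given without it. Line 9 was as often at an extreme. It was highest in 21.7% and lowest in 17.1% of rows that passed, against 22.6% and 14.0% for line 1. The table did not pair its identifiers with symbols, so B cell markers and the remaining genes of the pathway (class II chains, invariant chain, CIITA, RFX5, NF-Y subunits and other cathepsins) could not be matched and were not analysed here.

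None of the 3 genes that passed the filter, CTSS, RFXAP and RFXANK, spanned 2-fold between its lowest and highest line. Of the 12590 rows, 26.4% did so, and 3 genes are too few to be told apart from that share. IFI30 did not span 2-fold either. The widest of the 4 ranges was that of CTSS, at 1.63-fold, close to the median of all rows that passed, 1.60-fold. RFXANK (1.47-fold) and RFXAP (1.38-fold) were narrower than that median. An F test of each row variance against limma's prior called 0% of the 12590 rows after Benjamini-Hochberg adjustment (658 at an unadjusted p under 0.05). The adjusted p from this F test was 0.999 for each of CTSS, RFXAP and RFXANK. Variances differed so widely between rows (2.75 prior degrees of freedom) that a call was hard to reach, and the test does not show that the lines were alike.

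**Figure D1:**
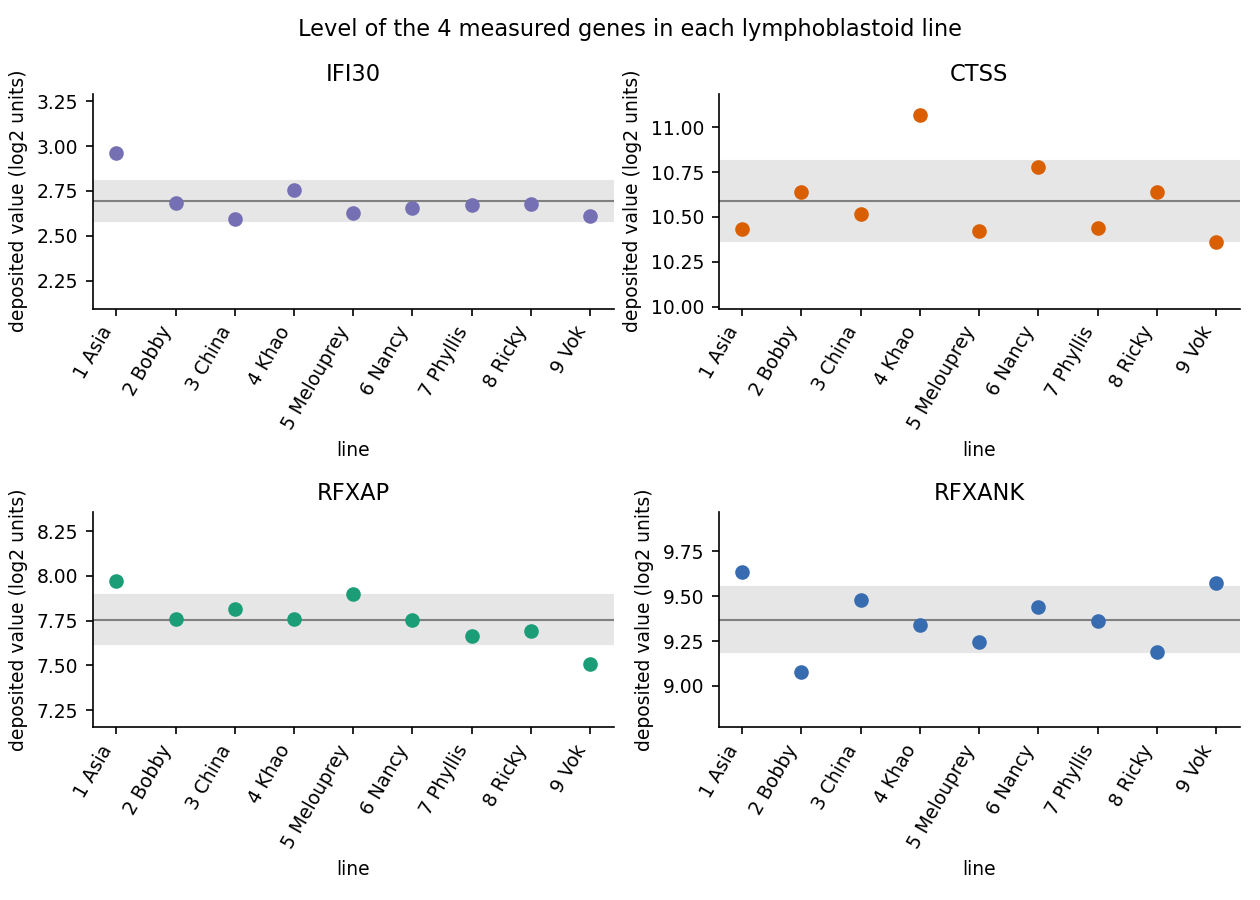
Deposited level, taken as log2, of IFI30, CTSS, RFXAP and RFXANK in each of the 9 lines (points). The mean (line) and 1 SD to each side (grey band, n = 9) are drawn. Each vertical axis has the same width in log2 units, centred on the mean of its gene. CTSS was highest in line 4, IFI30, RFXAP and RFXANK in line 1, and RFXANK was lowest in line 2.

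**Figure D2:**
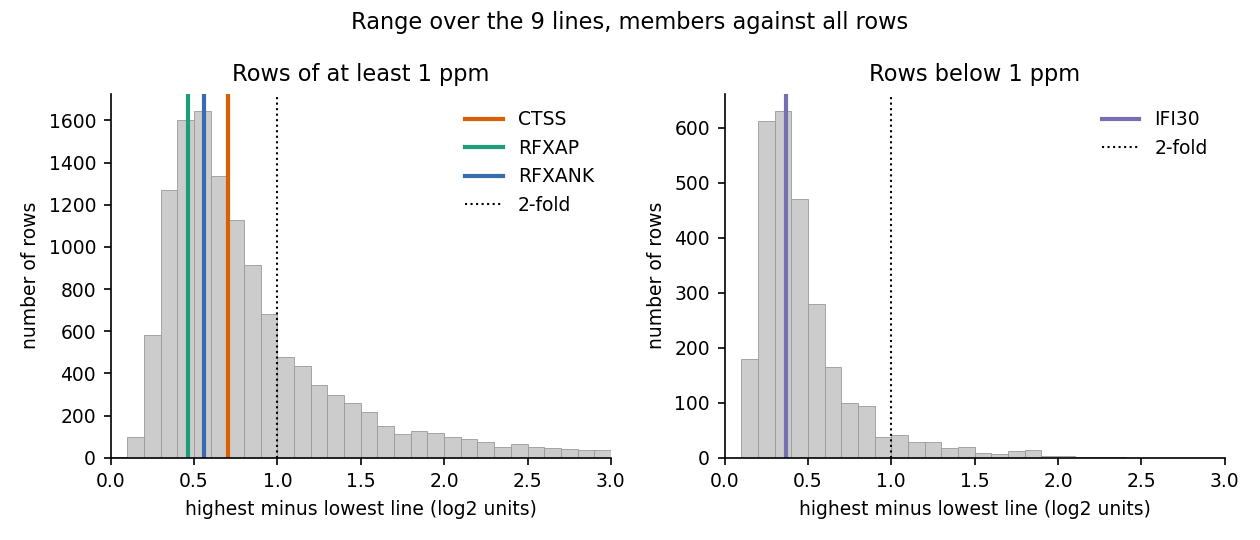
Number of rows (vertical axis) by the difference between the highest and the lowest line in log2 units (horizontal axis, drawn up to 3), for rows of at least 1 ppm (left) and below 1 ppm (right). Coloured lines mark the measured genes, all of which lie left of the dotted 2-fold line, and CTSS, at 0.71, lies beside the median of the left panel, 0.68.

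CTSS, the protease that trims the invariant chain, had a level of 10.36 log2 units in its lowest line (line 9), a median of 10.52 and 11.07 in its highest line (line 4), with a mean of 10.59 ± 0.22 (SD, n = 9). In linear terms this was 111.7 ± 18.4 ppm, from 95.9 to 153.6 ppm. Line 4 stood highest, 1.46-fold above the median line, followed by line 6 at 10.78 log2 units. Lines 2 (10.64), 8 (10.64) and 3 (10.52) came next. Lines 7 (10.44), 1 (10.43), 5 (10.42) and 9 (10.36) lay together at the lower end. With 1 library a line, the order of such close neighbours cannot be set against a spread of their own. A rise as large as that of CTSS in line 4 was found in 4.0% of the rows that passed the filter, counted in the same line. Without line 4 the range of CTSS was 1.33-fold. The range of CTSS was wider than that of 52.5% of all rows that passed, and wider than that of 60.6% of the 1677 rows whose mean lay within 0.5 log2 units of its own.

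IFI30, the thiol reductase, was listed below 1 ppm in every line. It ran from 2.60 log2 units in line 3 through a median of 2.67 to 2.96 in line 1 (mean 2.69 ± 0.11, SD, n = 9). In linear terms it held 0.465 ± 0.038 ppm, and no line exceeded 0.560 ppm. Lines 2 to 9 lay between 2.60 and 2.76 log2 units, and line 1 stood 0.21 above the nearest of them, line 4. By Dixon's gap criterion for 9 values line 1 was outlying, as a line was in 21.8% of rows below the filter and in 10.1% of rows that passed it. Line 1 was the highest line in 41.2% of rows below the filter. Without line 1 the range of IFI30 was 1.12-fold instead of 1.29-fold. The SD of IFI30 was 0.11 over all 9 lines. The 1556 rows within 0.5 log2 units of its mean had a median SD of 0.12 over the same lines. Without line 1 the SD of IFI30 was 0.050, and no median SD of other rows was computed without that line. The range of IFI30 was wider than that of 44.8% of rows below the filter. Those rows had a median range of 0.39 log2 units, against 0.68 in rows that passed, and the cause was not tested. The counts behind these low values are not known, so no floor of detection can be set for IFI30. The normalization is not stated either, so the folds and ppm of IFI30 describe the deposited values and may not equal those of the reads.

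RFXAP, a subunit of the RFX complex, differed least between lines among the 3 genes that passed the filter. It was lowest in line 9, at 7.51 log2 units, had a median of 7.76 and was highest in line 1, at 7.97, with a mean of 7.76 ± 0.13 (SD, n = 9). Its linear level was 15.6 ± 1.41 ppm. Line 5 followed line 1 at 7.90 log2 units and line 3 at 7.81, while lines 2, 4 and 6 lay at 7.75 or 7.76. Lines 8 (7.69) and 7 (7.66) were lower, and line 9 stood 0.16 below line 7. Only 17.4% of the 1553 rows of similar mean level had a narrower range than RFXAP. Without line 9 the range fell from 1.38-fold to 1.24-fold, and without line 1 it was 1.31-fold.

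RFXANK, the ankyrin repeat subunit of the same complex, ran from 9.08 log2 units in line 2 through a median of 9.36 to 9.64 in line 1, with a mean of 9.37 ± 0.18 (SD, n = 9). Its linear level was 47.8 ± 6.15 ppm. Line 9 was second highest, at 9.57, followed by lines 3 (9.48), 6 (9.44), 7 (9.36) and 4 (9.34). Lines 5 (9.24), 8 (9.19) and 2 made up the lower end. A fall from the row median as large as that of RFXANK in line 2, to 0.82 of the median line, was found in 4.81% of the rows that passed, counted in that line. Line 2 otherwise departed little from the row medians, and was the lowest line in 4.49% of rows. Line 1 was the highest line in 22.6% of rows that passed, so its first place in RFXAP and RFXANK is a common position for that line. Without line 1 RFXANK ranged 1.41-fold.

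RFXAP and RFXANK, whose proteins belong to one complex, stood on the same side of their medians in some lines and on opposite sides in others. Line 1 was highest for both, line 3 was above both medians and line 8 below both. Line 9 was lowest for RFXAP and second highest for RFXANK. Such positions were common for line 9, which was the lowest line in 17.1% and the highest in 21.7% of rows that passed. In that line 19.6% of these rows fell as far below their median as RFXAP, and 26.6% rose as far above it as RFXANK. Line 2 was lowest for RFXANK and near the median for RFXAP. The difference RFXAP minus RFXANK, given as a deviation from its median over the lines, was -0.40 log2 units in line 9. It was between -0.03 and 0.08 in lines 1, 3, 4, 6 and 7. It was higher in lines 8 (0.16), 5 (0.32) and 2 (0.35). The balance of the 2 transcripts spanned 1.68-fold, and 1.30-fold without line 9. A difference of weakly correlated genes is wider than either gene by construction, so this range is given as a description.

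**Figure D3:**
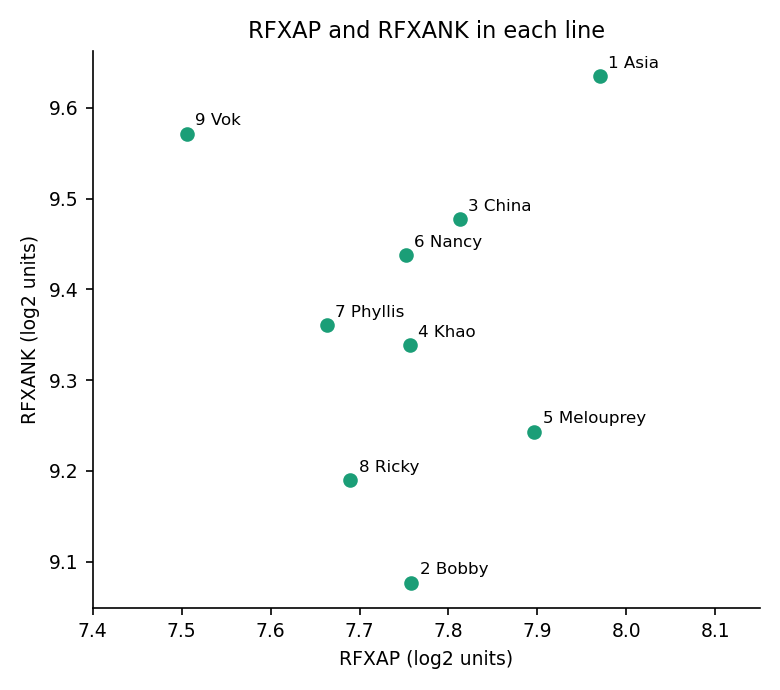
RFXANK level (vertical axis) against RFXAP level (horizontal axis), both in log2 units, with 1 point for each of the 9 lines and no axis starting at 0. The points follow no common slope (r = 0.034), and line 9 joins the lowest RFXAP, 7.51, to a high RFXANK, 9.57.

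Over the 9 lines RFXAP and RFXANK had a Pearson r of 0.034 (exact permutation p = 0.933, adjusted 0.981) and a Spearman rho of 0.050 (exact permutation p = 0.912, adjusted 0.983). An absolute r at least as large was reached by 94.8% of the 12590 rows compared with RFXAP. Without lines 1 and 9, the farthest from the RFXAP median, r was 0.041, whereas it was -0.44 without line 1 alone and 0.50 without line 9 alone.

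Correlations were computed for the 6 pairs of measured genes and for each of them with every row that passed, and p was adjusted over all 50354 pairs. The two-sided exact permutation test called 0% of the 50354 pairs by Pearson r, of which 5313 had an unadjusted p under 0.05, and 6 pairs by Spearman rho. No pair of the measured genes was among the calls. The Pearson r of highest absolute value was that of IFI30 and RFXAP, at 0.56, with an exact permutation p of 0.142 (adjusted 0.569). Its Spearman rho was 0.25 (exact permutation p = 0.521, adjusted 0.884). The relation rested on line 1, without which r was 0.061, and without lines 1 and 4 it was -0.021. IFI30 and RFXANK gave r = 0.34, with an exact permutation p of 0.393 (adjusted 0.746), and a rho of -0.20, with an exact permutation p of 0.613 (adjusted 0.915). Here r turned to -0.45 without line 1, and to -0.72 without lines 1 and 4.

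CTSS, which was highest in lines 4 and 6, did not follow the other genes closely when all lines were used. With RFXANK its r was -0.30, with an exact permutation p of 0.434 (adjusted 0.768), and its rho was -0.43, with an exact permutation p of 0.250 (adjusted 0.758). Without lines 4 and 6 that r was -0.73, and with any single line left out it lay between -0.42 and -0.17. With RFXAP, CTSS had an r of 0.029, with an exact permutation p of 0.938 (adjusted 0.982), a rho of -0.017, with an exact permutation p of 0.982 (adjusted 0.996), and an r of 0.076 without lines 4 and 6. With IFI30, CTSS had an r of 0.095, with an exact permutation p of 0.787 (adjusted 0.934), a rho of 0.40, with an exact permutation p of 0.291 (adjusted 0.787), and an r of -0.076 without lines 4 and 6. Leaving out line 1, the outlying line of IFI30, gave r = 0.81 for CTSS and IFI30 (n = 8, exact permutation, adjusted p = 0.404), and leaving out line 4 gave -0.12.

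**Figure D4:**
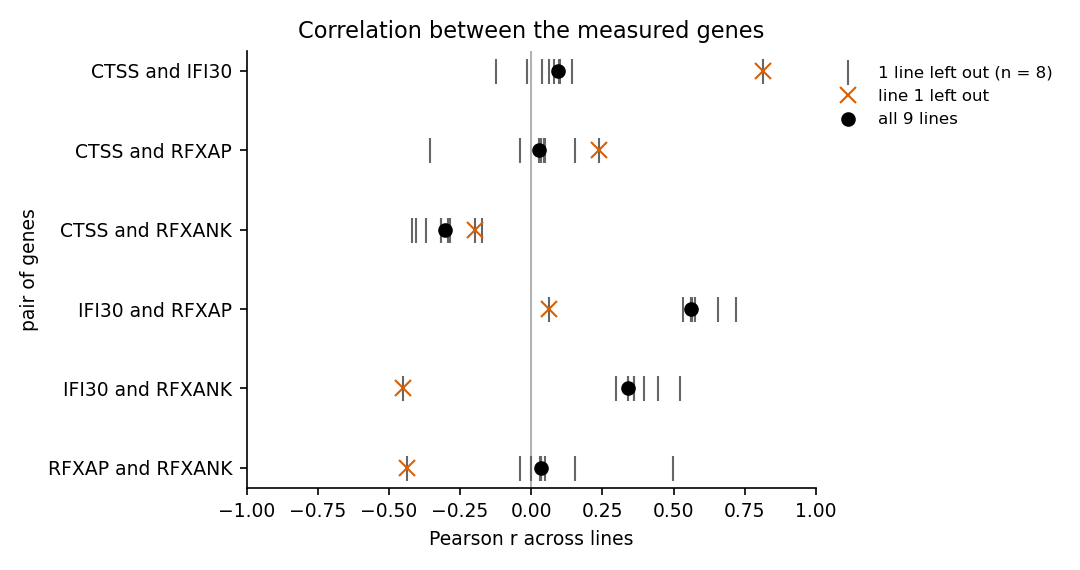
Pearson r (horizontal axis) for each of the 6 pairs of measured genes, over all 9 lines (black points), with 1 line left out in turn (grey ticks) and with line 1 left out (orange crosses). Leaving out line 1 moves CTSS and IFI30 from 0.095 to 0.81 and RFXAP and RFXANK from 0.034 to -0.44.

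For 2 of the genes the row of closest pattern is given by identifier, since no symbol could be matched. These 2 were picked after values were seen. The closest rows to IFI30 and RFXAP, not named here, had a higher r, of 0.97 and 0.98 (exact permutation, adjusted p = 0.248 and 0.133). ENSG00000144713 had the highest r with CTSS, at 0.96 over 9 lines (exact permutation, adjusted p = 0.235). Its own level was 14.56 log2 units in line 4 and 14.29 in line 6, and between 14.04 and 14.21 elsewhere. ENSG00000164011 had the highest r with RFXANK, also 0.96 (exact permutation, adjusted p = 0.151), with 7.37 log2 units in line 1 and 6.99 in line 8. Neither named row passed the threshold after adjustment. Both were picked for their r over the same 9 lines, so a shared order of lines with CTSS or RFXANK is no separate result.

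Gene overlap and cell composition could bear on these levels, and neither was tested. In the RefSeq annotation of the gibbon assembly Asia_NLE_v1, IFI30 overlaps PIK3R2, and RFXANK overlaps BORCS8 and NR2C2AP, while CTSS and RFXAP overlap no other gene. These overlaps are of whole gene spans, whatever the strand or exons, and the build used for counting is not known. Strandedness is not given in the sources used here, so reads from the overlapping stretches may not have been assigned to IFI30 or RFXANK alone, and the size of this was not tested. In bulk RNA, fewer cells expressing a gene and less RNA per cell cannot be told apart.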

How the data were processed

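RNA-seq of 9 gibbon lymphoblastoid lines was used, from 1 table of the whole series. The values deposited by the authors are logarithmic and were taken as log2 expression. The base and the normalization are not stated. Per the submitters' processing notes Trimmomatic, STAR, edgeR and DESeq2 were used, with no version or role, and the genome build is not given in the sources used here. Columns summed to nearly equal linear totals, a sign of scaling before deposit, so depth is unknown and no counting interval could be given. Row identifiers were in the format of human Ensembl genes, and symbols of the 8 members came with their identifiers. None of the 15356 identifiers matched the RefSeq gene table, which holds 33914 genes. It lists the symbols of the 4 measured members and of 0 of the other 4.

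The filter kept rows averaging 1 ppm or more. Variances were tested with limma 3.58.1 in R 4.3.3 (robust prior following the mean level, Benjamini-Hochberg adjustment, threshold 0.05). Pearson and Spearman correlations were tested over all 362880 orders of the 9 lines with numpy 2.4.6, two-sided, and adjusted over all pairs of a measured member and a row. An outlying line was called by Dixon's gap criterion for 9 values. The variance and correlation tests were also run on simulated data. Simulated row variances were drawn around a narrow prior, whereas these data gave 2.75 prior degrees of freedom. That run therefore does not show the power of the variance test here. Other scalings, a pseudocount, other filters, another prior and the omission of each line were tried. The rule for named rows was to print the closest rows to HLA-DMA and HLA-DOA. Neither had a row, so those of CTSS and RFXANK were printed instead. The planned search of promoters and proteins, and the HLA-DM and HLA-DO balance, were not run, because the needed sequences and rows were not at hand. Members and lists were chosen with earlier results of these data known.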

Additional observations from a re-analysis of the deposited data

Results flagged for a closer look

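Of 5 sets of 9 values checked for an outlying line (the 4 measured genes and the difference RFXAP minus RFXANK), 2 did so. By chance about 1 in 20 independent sets is flagged, these sets overlap, and the same criterion flagged 10.1% of rows that passed the filter and 21.8% of rows below it, where IFI30 lies. IFI30 was flagged in line 1, at 2.96 log2 units against 2.76 in the next line. RFXAP minus RFXANK was flagged in line 9, at -0.40 log2 units from its median, with a gap ratio that only just passed the criterion.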

How the results depend on the processing

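The counts of 0 members spanning 2-fold and 0 rows called by the variance F test were the same under every setting run. That test listed 503 to 844 rows at an unadjusted p under 0.05. Rows spanning 2-fold numbered 1892 with a pseudocount of 64 on the linear scale, which moved the median of all rows by 0.36 log2 units, against 3327 as deposited. The range of IFI30 was 0.37 log2 units as deposited, 0.22 after quantile normalization and 0.036 with the pseudocount, which lies far above its own linear level. With no filter the number of members with an outlying line was 1 (IFI30) in place of 0. The correlation of RFXAP and RFXANK was -0.014 with a common median. That of CTSS and RFXAP was -0.027 with division by the linear total and -0.017 as Spearman rho, and that of IFI30 and RFXANK was -0.20 as rho. None of these r was called, in any setting. With a line left out, the range in log2 units lay between 0.42 and 0.71 for CTSS, 0.16 and 0.37 for IFI30, 0.31 and 0.46 for RFXAP and 0.38 and 0.75 for RFXAP minus RFXANK, and between 0 and 1 member had an outlying line (CTSS, without line 6). In the same way r lay between -0.12 and 0.81 for CTSS and IFI30, -0.36 and 0.24 for CTSS and RFXAP, -0.45 and 0.52 for IFI30 and RFXANK and -0.44 and 0.50 for RFXAP and RFXANK. The cause of these changes was not tested. Settings for HLA-DM and HLA-DO were not run, because these genes had no row. No paired analysis was possible because the lines form a single group. With no depth known and the normalization not stated, the part of the IFI30 spread due to counting or to the normalization could not be estimated.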
